A study of Mus musculus with 12 samples.

Results

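The 8 genes described here encode enzymes of late cholesterol synthesis: Cyp51, Tm7sf2, Msmo1, Nsdhl, Hsd17b7, Ebp, Sc5d and Dhcr7. They were taken by gene symbol from the 22552 genes of the deposited expression table, where Msmo1 stands under its older symbol Sc4mol. All 8 were found. In this part of the pathway lanosterol, the first sterol ring product, is stripped of its extra methyl groups and its double bonds are moved and reduced until cholesterol remains. The lamin B receptor (Lbr), a protein of the inner nuclear membrane, and Tm7sf2 of the endoplasmic reticulum carry the same sterol C14-reductase activity, which follows the demethylation by Cyp51. SREBP-2, the sterol-sensing transcription factor, is known to drive most genes of the pathway when cell sterol is low.

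RNA sequencing was done on C57Bl/6 mice with a knockout of Lbr (LBR_KO) or of Lmna, the gene of the lamina proteins lamin A and C (LMNA_KO), and on wild-type (wt) mice. Striated muscle gave 2 LBR_KO, 2 LMNA_KO and 2 wt samples, and myoblasts, the dividing precursors of muscle fibres, gave 2 LBR_KO samples with 1 wt sample of that litter (LBR_wt) and 2 LMNA_KO samples with 1 wt sample of that litter (LMNA_wt). Knockouts were homozygous offspring of heterozygous parents and were set against wt animals of the litter. In muscle, however, 1 wt column serves both knockouts and its name gives no litter, so litter and knockout cannot be told apart there. The labels give no age, sex, muscle or deleted exon. The table holds 7 columns in FPKM, fragments per length of transcript and sequencing depth, which is a scale per length, so that levels can be compared between genes. Each column is 1 value per group, so muscle groups and knockout myoblasts have no replicate error, and the 2 wt myoblast libraries give the only spread between libraries of one genotype and tissue.

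Acta1, skeletal actin, stood at 13887 to 17215 FPKM in muscle. Of the markers that define myoblasts, the determination factor gene Myod1 stood at 16.4 to 18.1 FPKM in muscle and 2.09 to 5.51 FPKM in myoblasts, and the progenitor factor gene Pax7 at 1.28 to 2.10 FPKM in muscle and 0.15 to 0.27 FPKM in myoblasts. Myod1 and Pax7 thus bear out the myoblast label only weakly. Of 6 listed myoblast genes 5 were compared between wt muscle and wt myoblasts, and 4 were higher in muscle and 1, Chrna1, was lower. Chrna1 had 2.67 to 14.1 FPKM in myoblasts and 6.12 to 8.22 FPKM in muscle. Des, the desmin gene, had 18.7 to 85.2 FPKM in myoblasts and 731 to 909 FPKM in muscle. The 10 macrophage genes summed to 136 to 193 FPKM in muscle and 423 to 1583 FPKM in myoblasts. Total counts are unknown. Low values recur in steps, and from the commonest step 1 FPKM of a 2-kb transcript was worth about 6.32 fragments in LBR_KO muscle, 3.64 in LMNA_KO muscle and 8.34 in wt muscle, and 22.96 to 33.2 in myoblasts. In LMNA_KO muscle a second step was nearly as common (64 genes against 77), so its value is the least certain. That second step was smaller than the commonest, whereas it was larger in the other columns. By it the fragment numbers of LMNA_KO muscle would be higher than those from the commonest step. Lbr was at 1.87 FPKM in LBR_KO muscle against 11.8 FPKM in wt muscle, and at 7.71 FPKM in LBR_KO myoblasts against 16.1 FPKM in LBR_wt myoblasts, log2(FPKM + 1) differences of -2.16 and -0.97. Lmna was at 22.6 FPKM in LMNA_KO muscle against 59.5 FPKM in wt muscle, and at 18.5 FPKM in LMNA_KO myoblasts against 147 FPKM in LMNA_wt myoblasts.

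The members' levels were set out in pathway order. Cyp51, the cytochrome P450 that demethylates lanosterol, had 2.32 FPKM in LBR_KO muscle, 1.54 in LMNA_KO muscle and 2.04 in wt muscle, and 49.7 FPKM in LBR_KO, 54.6 in LBR_wt, 36.7 in LMNA_KO and 43.4 in LMNA_wt myoblasts. It was the most abundant member in all 4 myoblast columns and ranked 4th or 6th in muscle, and no muscle value came near a myoblast value. Tm7sf2, the C14-reductase, had 1.20 FPKM in LBR_KO muscle, 0.62 in LMNA_KO muscle and 0.21 in wt muscle, and 1.49 FPKM in LBR_KO, 1.49 in LBR_wt, 1.81 in LMNA_KO and 2.14 in LMNA_wt myoblasts. It was the least abundant member in all 7 columns.

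The 3 enzymes that remove the methyl groups at carbon 4 followed. Msmo1, the methyl sterol oxidase, had 3.26 FPKM in LBR_KO muscle, 2.80 in LMNA_KO muscle and 2.85 in wt muscle, and 43.1 FPKM in LBR_KO, 36.3 in LBR_wt, 33.5 in LMNA_KO and 35.6 in LMNA_wt myoblasts. It ranked 2nd in every column. Nsdhl, the decarboxylating dehydrogenase, had 2.10 FPKM in LBR_KO muscle, 2.24 in LMNA_KO muscle and 2.32 in wt muscle, and 20.8 FPKM in LBR_KO, 22.0 in LBR_wt, 18.6 in LMNA_KO and 20.6 in LMNA_wt myoblasts. Hsd17b7, the ketosterol reductase that ends each round, had 1.44 FPKM in LBR_KO muscle, 1.07 in LMNA_KO muscle and 1.29 in wt muscle, and 20.2 FPKM in LBR_KO, 26.0 in LBR_wt, 20.3 in LMNA_KO and 22.4 in LMNA_wt myoblasts. Nsdhl and Hsd17b7 lay close together in myoblasts, but Hsd17b7 stood below Nsdhl in all 3 muscle columns.

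Last in pathway order came Ebp, Sc5d and Dhcr7. Ebp, the sterol isomerase, had 2.22 FPKM in LBR_KO muscle, 2.29 in LMNA_KO muscle and 2.37 in wt muscle, and 8.13 FPKM in LBR_KO, 6.84 in LBR_wt, 11.0 in LMNA_KO and 8.50 in LMNA_wt myoblasts. Sc5d, the sterol desaturase, had 4.10 FPKM in LBR_KO muscle, 3.82 in LMNA_KO muscle and 3.82 in wt muscle, and 24.9 FPKM in LBR_KO, 25.6 in LBR_wt, 25.6 in LMNA_KO and 20.9 in LMNA_wt myoblasts. Dhcr7, the reductase that makes cholesterol from its 7-dehydro precursor, had 2.55 FPKM in LBR_KO muscle, 2.71 in LMNA_KO muscle and 2.05 in wt muscle, and 9.85 FPKM in LBR_KO, 10.3 in LBR_wt, 10.8 in LMNA_KO and 10.9 in LMNA_wt myoblasts. Sc5d was the most abundant member in every muscle column.

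**Figure D1:**
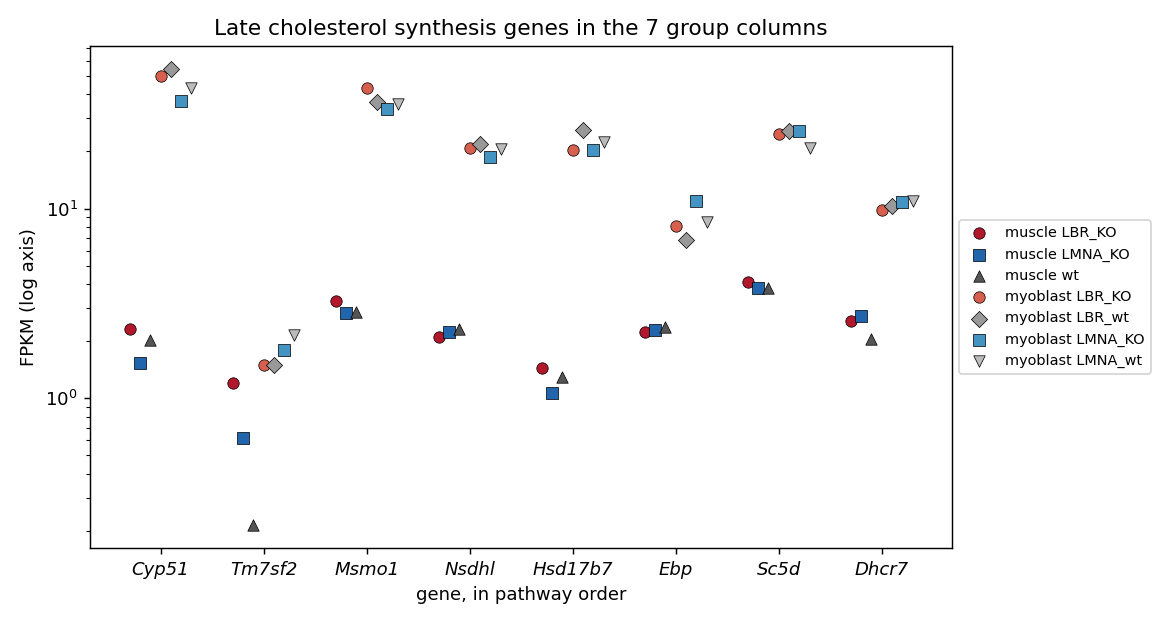
FPKM of each of the 8 genes (log axis) in the 7 group columns, 1 point per column, muscle columns left of myoblast columns. For each gene all 3 muscle points lie below all 4 myoblast points; the gap is widest for Cyp51 and narrowest for Tm7sf2, whose LBR_KO muscle point at 1.20 FPKM comes close to its myoblast points.

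With the mean and SD of the 2 wt myoblast libraries, levels ran from Cyp51 (49.0 ± 7.90 FPKM) over Msmo1 (35.9 ± 0.52), Hsd17b7 (24.2 ± 2.57), Sc5d (23.2 ± 3.33), Nsdhl (21.3 ± 1.01), Dhcr7 (10.6 ± 0.43) and Ebp (7.67 ± 1.17) to Tm7sf2 (1.82 ± 0.46). The ranges of Hsd17b7 and Sc5d overlapped, as did those of Sc5d and Nsdhl. The other neighbours in this order did not overlap between the libraries.

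The tissue difference, muscle minus myoblast, was tested for each member with limma in an additive fit of all 7 columns with terms for tissue and genotype on log2(FPKM + 1). In this fit the wt myoblast columns and the departures from additivity give the error. All 8 members were lower in muscle at an adjusted p under 0.05 (Benjamini-Hochberg over 12454 genes), where 51% of all tested genes were called lower and 27.7% higher. Tm7sf2 averaged 0.68 FPKM in muscle and 1.73 FPKM in myoblasts and reached the minimum of 1 FPKM over all columns only through the myoblasts, where it is higher. The median difference of the members was -2.55 on the log2 scale, beside -0.47 for all tested genes. No muscle column of any member overlapped a myoblast column, which held in this direction for 52% of genes compared.

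Cyp51 averaged 1.96 FPKM over the 3 muscle columns and 46.1 FPKM over the 4 myoblast columns, a 23.5-fold lower level in muscle (log2 difference -3.96, SE 0.14, limma adjusted p = 6.25e-07). Hsd17b7 was 17.6-fold lower in muscle (log2 -3.33, SE 0.14), Msmo1 12.5-fold (-3.27, SE 0.12) and Nsdhl 9.24-fold (-2.72, SE 0.13). The last 3 enzymes in pathway order had smaller differences, Sc5d by 6.19-fold (-2.37, SE 0.13), Dhcr7 by 4.30-fold (-1.76, SE 0.13) and Ebp by 3.75-fold (-1.55, SE 0.16). The intervals at 95% of Cyp51 (-4.29 to -3.64) and Ebp (-1.92 to -1.18) do not overlap. Those of Nsdhl (-3.02 to -2.43) and Sc5d (-2.69 to -2.05) do. Tm7sf2 was 2.55-fold lower on average (-0.77, SE 0.22, limma adjusted p = 0.014), and without the wt muscle column it no longer passed the threshold (log2 -0.49). Its interval (-1.296 to -0.251) held the median of all genes. With a pseudocount of 0.1 the Tm7sf2 difference was -1.54. With a pseudocount of 5 it was -0.26, and Hsd17b7 stood at -2.09, Nsdhl at -1.81, Dhcr7 at -1.06 and Ebp at -0.91. The other members had limma adjusted p-values of at most 6.52e-05. Lbr was also lower in muscle in this fit (-0.69, SE 0.25, limma adjusted p = 0.037), which includes the LBR_KO columns. Within wt its difference was -0.35 (11.8 FPKM in muscle against a mean of 15.4 in myoblasts). Within LMNA_KO it was -0.24 (11.3 against 13.5 FPKM). In LBR_KO samples Lbr stood at 1.87 FPKM in muscle against 7.71 FPKM in myoblasts. Unlike the members, Lbr overlapped between the tissues, but only through the LBR_KO myoblast column. In the columns without the Lbr knockout it stood at 11.3 and 11.8 FPKM in muscle and at 13.5 to 16.1 FPKM in myoblasts, with no overlap. Within one genotype, all 8 members were at least 2-fold lower in wt muscle than in wt myoblasts, where 36.5% of all genes were, and 7 of 8 in LBR_KO and in LMNA_KO samples, where 35.1% and 34.1% of genes were. The exception in both was Tm7sf2, at -0.18 in LBR_KO and -0.79 in LMNA_KO samples.

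**Figure D2:**
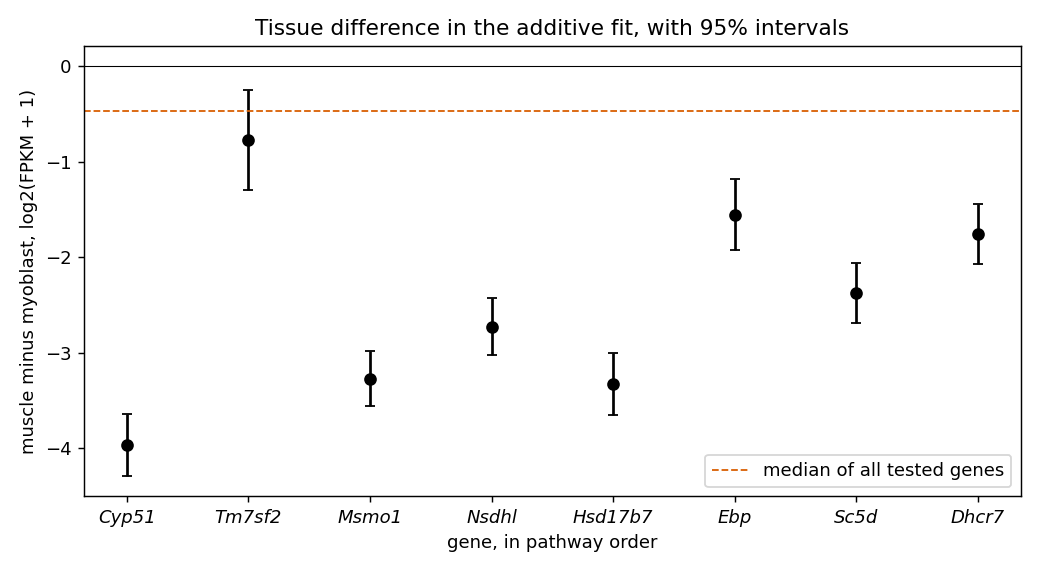
Difference of log2(FPKM + 1), muscle minus myoblast, for each of the 8 genes in the additive fit, with 95% intervals as bars. All 8 lie below 0; the first sterol demethylation gene Cyp51 is at -3.96 and Tm7sf2 at -0.77, and the dashed line marks the median of all tested genes at -0.47.

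Promoter sequences are shown for Cyp51 and Hsd17b7, which differed most between the tissues, and for Ebp, which differed least among the members of more than 2 FPKM in muscle. They are the 250 bases before the RefSeq start on build GRCm38.p6, while the deposited values rest on mm9 and carry no coordinates. Capitals mark CCAAT, the box bound by NF-Y, and TCACCTCA, a variant of the sterol regulatory element, on either strand, so that the reverse complement ATTGG is also in capitals.
Cyp51, chr5:4104698-4104947, minus strand: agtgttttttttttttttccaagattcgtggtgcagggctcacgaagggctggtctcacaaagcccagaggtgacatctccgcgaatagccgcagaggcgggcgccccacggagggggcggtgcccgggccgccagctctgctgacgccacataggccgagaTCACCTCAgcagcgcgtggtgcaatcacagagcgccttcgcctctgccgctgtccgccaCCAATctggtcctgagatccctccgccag
Hsd17b7, chr1:169969206-169969455, minus strand: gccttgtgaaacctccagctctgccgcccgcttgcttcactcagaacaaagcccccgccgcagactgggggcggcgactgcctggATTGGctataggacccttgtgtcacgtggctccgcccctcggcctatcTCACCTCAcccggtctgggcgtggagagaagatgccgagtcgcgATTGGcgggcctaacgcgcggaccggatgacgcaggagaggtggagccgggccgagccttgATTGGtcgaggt
Ebp, chrX:8193513-8193762, minus strand: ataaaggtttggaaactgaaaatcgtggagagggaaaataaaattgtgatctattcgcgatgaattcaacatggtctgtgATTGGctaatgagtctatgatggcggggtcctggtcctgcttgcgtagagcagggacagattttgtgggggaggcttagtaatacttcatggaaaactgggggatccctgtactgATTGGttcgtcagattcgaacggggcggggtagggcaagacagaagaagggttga

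In windows of 300 bases, 250 before to 50 after the start, CCAAT was found on either strand for all 8 members, in 8 of their 10 windows, since 2 of the 3 windows of Dhcr7 lacked it. It was found in 37.4% of all 32851 windows. TCACNCCAC, a core of the sterol regulatory element, was found in 0 of the 10 windows and in 1.24% of all windows. TCACCTCA, a motif added after the Cyp51 sequence was read, was found in Cyp51 and Hsd17b7 and in 1.17% of all windows. Msmo1 lacked it, although its tissue difference (log2 -3.27) was close to that of Hsd17b7 (-3.33). These are matches of letters and show no binding.

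The make-up of the 8 transcripts also differed between the tissues. They summed to 19.2 FPKM in LBR_KO, 17.1 in LMNA_KO and 16.9 in wt muscle, and to 178 FPKM in LBR_KO, 183 in LBR_wt, 158 in LMNA_KO and 164 in LMNA_wt myoblasts. Cyp51 took 8.99% to 12.1% of this sum in muscle and 23.2% to 29.8% in myoblasts. Ebp took at least 11.6% in muscle and at most 6.93% in myoblasts, and Dhcr7 12.1% to 15.9% in muscle and 5.52% to 6.82% in myoblasts. Different library kits were used for muscle and for myoblasts, so kit and tissue cannot be told apart, and in bulk RNA fewer cells of a type and less RNA per cell cannot be told apart. The 6 proliferation genes summed to 25.0 to 48.7 FPKM in muscle and 279 to 376 FPKM in myoblasts, and their part in the difference was not tested.

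Other genes of sterol handling were taken from lists, to be read against the 51% of tested genes that were lower in muscle and the 27.7% that were higher. Of 11 genes of the mevalonate pathway, which builds lanosterol from acetyl-CoA, 10 were tested and 7 were lower in muscle (median log2 -1.55), with 0 higher. The squalene epoxidase gene Sqle (log2 -4.27, SE 0.13) and the lanosterol synthase gene Lss (-2.68, SE 0.17) were among them, whereas Fdps, the farnesyl diphosphate synthase gene, differed by -0.03 (SE 0.18, limma adjusted p = 0.90). Hmgcs1 was listed at 0 in all 7 columns and could not be compared. Of 11 tested genes of sterol sensing and uptake 10 were lower, among them Srebf2, the gene of SREBP-2 itself (-2.65, SE 0.15), and Insig2, a retention factor of SREBP, was higher (0.71, SE 0.14). All 6 electron donors and partners of the sterol enzymes were lower, Por, the reductase that feeds Cyp51, by -1.96 (SE 0.17). Of 5 tested genes of the sterol-activated receptor LXR and of cholesterol efflux 4 were higher in muscle, among them Abca1, the cholesterol exporter (1.78, SE 0.24), and 1 was lower. Of 4 tested genes of ester formation and oxysterols 3 were lower, Soat1, the esterifying enzyme, by -4.66 (SE 0.13), and Cyp27a1, an oxysterol-forming P450, was higher (3.04, SE 0.16). The other lower genes, Ch25h (0.33 to 0.98 FPKM in muscle) and Cyp7b1 (0.37 to 0.45), passed the minimum of 1 FPKM only through myoblasts, where they are higher. Cyp27a1 (0.10 to 0.34 FPKM in myoblasts) and the LXR gene Nr1h3 (0.32 to 0.86) passed it only through muscle, where they are higher.

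By Pearson correlation of log2(FPKM + 1) over the 7 columns, the genes most like the members' mean profile were Ywhaz, Rnf145, Lpp, Fmn1 and Fstl1, all with r of at least 0.9996. The columns fall into 2 tissue clusters, and 47.9% of the 8388 genes ranked had an r above 0.9, so this likeness is largely that of the tissue split.

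Each knockout was then compared with its wild type, to ask whether loss of the lamin B receptor, one of the C14-reductases, or of lamin A and C goes with other levels of the remaining enzymes. A change here means a difference of 1 or more in log2(FPKM + 1), or 2-fold, among genes that averaged 1 FPKM or more in that tissue. This scale understates changes of low genes, and with 1 column per group the differences have no p-value. No compared member changed in any of the 4 comparisons.

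In LBR_KO muscle against wt muscle, 7 members passed the filter and 0 changed, where 1.56% of all genes did. Their log2 differences ran from -0.10 (Nsdhl) to 0.22 (Dhcr7), with a median of 0.09 beside 0.10 for all genes. In LMNA_KO muscle against the same wt column, 0 of 7 changed, where 2.69% of all genes did, with differences from -0.26 (Cyp51) to 0.29 (Dhcr7) and a median of -0.04 beside 0.13 for all genes. Sc5d and Dhcr7 were above wt in both knockouts (Sc5d in LMNA_KO by 0.00 after rounding), a pattern found in 51.6% of genes, and Nsdhl and Ebp were below it in both, which 19.4% of genes were. Both muscle comparisons share the wt column. The values of the 7 rest on an estimated 12.2 to 62.0 fragments a gene in LBR_KO muscle, 7.26 to 33.3 in LMNA_KO muscle and 17.2 to 76.2 in wt muscle, so small changes were not detectable. The LMNA_KO numbers use the commonest step and would be higher by the second.

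In LBR_KO myoblasts against LBR_wt myoblasts, 0 of 8 members changed, where 2.6% of all genes did, with differences from -0.35 (Hsd17b7) to 0.24 (Msmo1). Lbr itself, at -0.97, fell just short of the 2-fold rule there. In LMNA_KO myoblasts against LMNA_wt myoblasts, 0 of 8 changed, where 1.2% of all genes did, with differences from -0.24 (Cyp51) to 0.33 (Ebp). The wt libraries differed from each other over a similar range, from -0.34 (Tm7sf2) to 0.32 (Cyp51) for LBR_wt minus LMNA_wt. In LBR_KO myoblasts only Msmo1 lay above both wt libraries, where 31.9% of genes did, and only Hsd17b7 and Dhcr7 lay below both, where 22.4% of genes did. In LMNA_KO myoblasts Ebp lay above both wt libraries, as 42.4% of genes did, and 4 members, Cyp51, Msmo1, Nsdhl and Hsd17b7, lay below both, as 25.3% of genes did. Cyp51 was at 36.7 FPKM there against 43.4 FPKM in LMNA_wt and 54.6 FPKM in LBR_wt myoblasts, a log2 difference of -0.24 from LMNA_wt and -0.56 from LBR_wt.

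**Figure D3:**
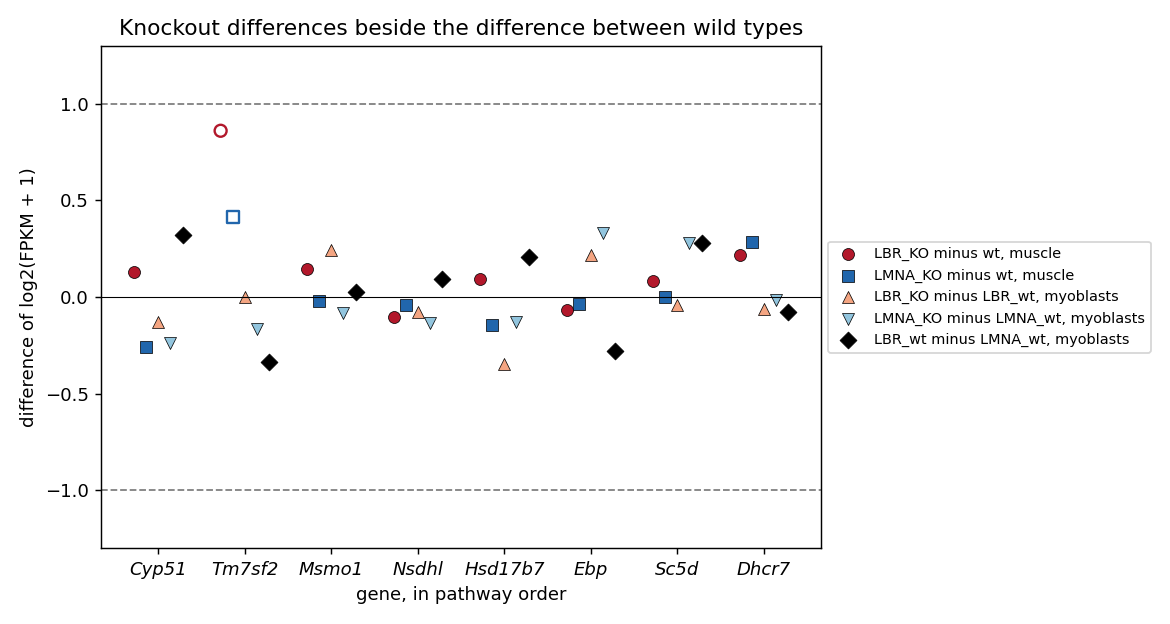
Difference of log2(FPKM + 1) of each knockout column from its wild type for the 8 genes, with the difference between the wt myoblast libraries as black diamonds. Dashed lines mark 2-fold; open symbols mark Tm7sf2 in muscle, below the filter of 1 FPKM, at 0.86 in LBR_KO and 0.42 in LMNA_KO, and all filled knockout symbols lie between -0.35 and 0.33.

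In a limma fit of the 4 myoblast columns with both wt libraries as 1 group, 0 members passed an adjusted p of 0.05 and 0 had an unadjusted p under 0.05 for either knockout, where 0.746% of all genes passed for LBR_KO and 0.842% for LMNA_KO. In the additive fit 0 members passed for either knockout at either level, where 0% and 0.00803% of all genes passed. At an unadjusted p under 0.05 the additive fit had 275 genes for LBR_KO and 479 for LMNA_KO, and the myoblast fit 360 and 412. In the additive fit Lbr itself (log2 -1.48, SE 0.30) had a limma adjusted p of 1.00. In the myoblast fit Lbr itself (log2 -0.91, SE 0.31) was not called for LBR_KO either. The 95% intervals of the members in the additive fit reached from -0.48 (Hsd17b7) to 0.90 (Tm7sf2) for LBR_KO and from -0.73 (Cyp51) to 0.76 (Tm7sf2) for LMNA_KO. In the myoblast fit they reached from -0.92 (Hsd17b7) to 0.95 (Msmo1) and from -1.11 (Cyp51) to 1.15 (Ebp). The intervals of neither fit show that the levels are alike.

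The knockouts were also set directly against each other. In myoblasts, LBR_KO minus LMNA_KO, 0 of 8 members changed, where 3.34% of all genes did. Cyp51 stood at 49.7 FPKM in LBR_KO and 36.7 FPKM in LMNA_KO myoblasts (log2 0.43), Msmo1 at 43.1 and 33.5 FPKM (0.35) and Ebp at 8.13 and 11.0 FPKM (-0.39). The wt libraries of the same litters differed by 0.32 in Cyp51, 0.03 in Msmo1 and -0.28 in Ebp (LBR_wt minus LMNA_wt), so knockout and litter cannot be told apart in these contrasts. In muscle 0 of 7 changed, where 1.49% of all genes did. Cyp51 again had the largest difference, 2.32 FPKM in LBR_KO and 1.54 FPKM in LMNA_KO muscle (0.39). These values rest on an estimated 28.8 and 11.0 fragments, the latter by the commonest step and higher by the second. In myoblasts the isoprenoid isomerase gene Idi1 of the mevalonate pathway changed in the same contrast, with 34.5 FPKM in LBR_KO and 15.3 FPKM in LMNA_KO myoblasts (1.13), but the wt libraries already stood at 31.3 FPKM (LBR_wt) and 18.5 FPKM (LMNA_wt).

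The C14-reductases were then compared as a pair. In muscle Tm7sf2 was 5.63-fold higher in LBR_KO than in wt by the ratio of FPKM, and 2.89-fold higher in LMNA_KO than in wt. Its mean of 0.68 FPKM in muscle lay below the filter, and the log2(FPKM + 1) differences were 0.86 and 0.42. With no filter and a pseudocount of 0.1 they were 2.06 and 1.20, past 2-fold in both knockouts, where 8.38% and 10.2% of all genes were. By the estimated value of a fragment, these levels rest on about 5.60 fragments in LBR_KO muscle, 1.66 or 2.88 in LMNA_KO muscle and 1.31 in wt muscle. At this depth a difference was not detectable. In LBR_KO myoblasts, where about 25.2 fragments lie behind the value, Tm7sf2 was at 1.49 FPKM, as in LBR_wt myoblasts.

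Lbr and Tm7sf2 together summed to 3.07 FPKM in LBR_KO muscle, 11.9 FPKM in LMNA_KO muscle and 12.0 FPKM in wt muscle. In myoblasts the sum was 9.21 FPKM in LBR_KO against 17.6 FPKM in LBR_wt, and 15.3 FPKM in LMNA_KO against 16.9 FPKM in LMNA_wt. Lbr exceeded Tm7sf2 in every column, by 1.55-fold in LBR_KO muscle, 18.2-fold in LMNA_KO muscle and 55.2-fold in wt muscle, and by 5.17-fold in LBR_KO, 10.8-fold in LBR_wt, 7.47-fold in LMNA_KO and 6.86-fold in LMNA_wt myoblasts. The muscle ratios rest on the few Tm7sf2 fragments given above and are only rough. Whether the remaining Lbr signal comes from an intact transcript was not tested. In the RefSeq and GENCODE annotations of GRCm38 Tm7sf2 starts within the 3′ end of Vps51, a gene of vesicle tethering on the same strand, which had 6.30 FPKM in LBR_KO, 6.54 in LMNA_KO and 4.58 in wt muscle, and its part in the low Tm7sf2 values was not tested.

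**Figure D4:**
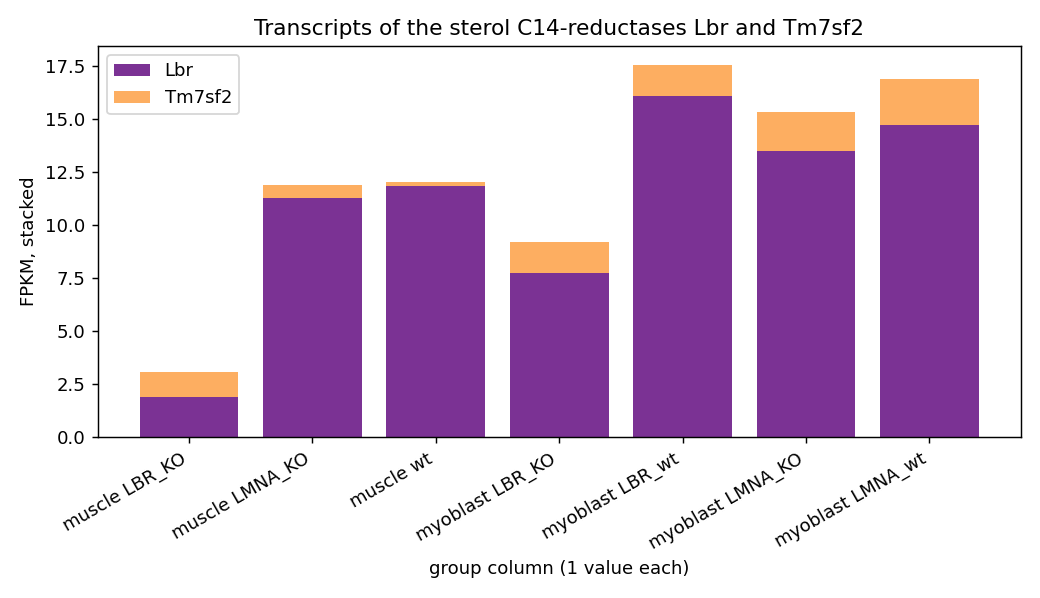
Stacked FPKM of Lbr and Tm7sf2 in the 7 group columns, muscle at the left, 1 value per column. The sum is 3.07 FPKM in LBR_KO muscle against 12.0 FPKM in wt muscle, and Tm7sf2 adds no more than 2.14 FPKM in any column.

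Some other sterol genes passed 2-fold. In LMNA_KO muscle 2 of 6 LXR and efflux genes rose and 0 fell, where 2.69% of all genes changed (median log2 0.79 beside 0.13 for all genes), Abca1 with 18.0 FPKM against 6.18 FPKM in wt muscle (1.40) and Mylip, a ubiquitin ligase gene that LXR is known to drive, with 21.1 FPKM against 7.69 FPKM (1.35). In LBR_KO muscle 0 of the 6 changed, where 1.56% of all genes did (median 0.42 beside 0.10 for all genes), and Apoe, the lipid carrier gene, had 186 FPKM against 110 FPKM in wt muscle (0.75). All 6 were above wt in both knockouts, as 51.6% of all genes were. Of 10 compared mevalonate genes 1 rose in LMNA_KO muscle and 0 in LBR_KO muscle. It was Mvd, the decarboxylase gene, with 6.04 FPKM in LBR_KO and 7.32 FPKM in LMNA_KO muscle against 2.89 FPKM in wt muscle (0.86 and 1.10). Of 3 compared sterol reductases 1 fell in LBR_KO muscle, Lbr itself, and 0 changed in LMNA_KO muscle.

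Markers of other cells were compared over the muscle genotypes, where 66.6% of all genes were above wt in LBR_KO and 65.5% in LMNA_KO. The 9 Schwann cell genes summed to 982 FPKM in LBR_KO, 609 in LMNA_KO and 468 in wt muscle, with 9 and 8 of 9 above wt. The 10 macrophage genes summed to 193 FPKM in LBR_KO, 179 in LMNA_KO and 136 in wt muscle, with 8 and 10 of 10 above wt, and the 5 lymphoid genes to 46.3 FPKM in LBR_KO, 23.9 in LMNA_KO and 10.9 in wt muscle, with 5 of 5 above wt in each knockout. Of the 3 brown fat genes, Ucp1 had 3.61 FPKM in LBR_KO, 1.23 in LMNA_KO and 67.8 in wt muscle, and Cidea had 1.20 FPKM in LBR_KO, 1.71 in LMNA_KO and 15.5 in wt muscle. Cpt1b, also the form of that enzyme in muscle, had 56.1 FPKM in LBR_KO, 97.3 in LMNA_KO and 52.2 in wt muscle. The 8 adipocyte genes summed to 761 FPKM in LBR_KO, 629 in LMNA_KO and 511 in wt muscle, with 7 and 2 of 8 above wt. The 4 liver genes summed to 11.8 FPKM in LBR_KO, 1.71 in LMNA_KO and 3.66 in wt muscle, with 4 and 1 of 4 above wt. The 5 fibroblast genes summed to 857 FPKM in LBR_KO, 834 in LMNA_KO and 915 in wt muscle, with 2 of 5 above wt in each knockout. The 5 endothelium genes summed to 194, 205 and 177 FPKM in the same order, with 3 and 5 of 5 above wt. The 8 genes of differentiating muscle summed to 35022, 26359 and 37873 FPKM, with 3 and 1 of 8 above wt. The 6 proliferation genes summed to 41.5 FPKM in LBR_KO, 25.0 in LMNA_KO and 48.7 in wt muscle, with 0 of 6 above wt in either knockout. Of these lists only the liver gene Ttr was at 0 in a muscle column, LMNA_KO. Their part in the values of the sterol genes was not tested.

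In myoblasts, 0 of 10 mevalonate, 0 of 12 sensing and uptake and 0 of 6 electron donor genes changed in either knockout, where 2.6% of all genes did in LBR_KO and 1.2% in LMNA_KO. Of 3 compared genes of ester formation and oxysterols 1 rose in LBR_KO myoblasts, Cyp7b1, an oxysterol hydroxylase gene, with 4.21 FPKM against 1.07 FPKM in LBR_wt and 0.51 FPKM in LMNA_wt myoblasts (1.33 against LBR_wt). It passed the minimum of 1 FPKM only through the LBR_KO column. Ch25h, the gene of an oxysterol-forming enzyme of macrophages, had 6.45 FPKM against 2.96 FPKM in LBR_wt and 6.37 FPKM in LMNA_wt myoblasts, and Apoe had 42.0 FPKM against 20.6 and 40.9 FPKM. The 10 macrophage genes summed to 1314 FPKM in LBR_KO myoblasts against 423 FPKM in LBR_wt and 1583 FPKM in LMNA_wt myoblasts, with 10 of 10 at least 2-fold above LBR_wt, 2 of 10 above both wild types and none at 0. The 8 genes of differentiating muscle summed to 525 FPKM in LBR_KO against 157 FPKM in LBR_wt myoblasts, and to 89.8 FPKM in LMNA_KO against 312 FPKM in LMNA_wt myoblasts. The part of these cells in the values of the members and of the other sterol genes was not tested.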

How the data were processed

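The deposited values are FPKM calculated by the authors, 1 value per gene and group in 7 columns. Per the submitters' processing notes the genome build was mm9. The aligner, counting tool, annotation, and how a pair of samples gave 1 column, are unknown, being not given in the sources used here. Per the labels' protocols, muscle and myoblast libraries were made with different NuGEN kits. Each column's name matched 1 group, and 0 columns stayed unmatched.

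Differences were calculated on log2(FPKM + 1) for genes averaging 1 FPKM or more across that tissue (across all 7 columns between tissues), without genes listed at 0 in a compared column. The fold rule of 2 stands in for a test. Fits used limma 3.58.1 (R 4.3.3, variance prior with trend): an additive fit of 7 columns (3 residual degrees of freedom) and a fit of the 4 myoblast columns (1), in which knockout columns are assumed to vary like the wild types. All p-values measure only the spread between these columns, and whether the samples of a group are separate animals' cultures is not stated for myoblasts.

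The members and lists were chosen with earlier results of these data known. Genes named were the 8 members, Lbr, Lmna, list genes past 2-fold or the 4 largest differences of a list, and the 5 genes most like the members. Vps51, the cell markers and the list genes named for the tissue comparison were chosen for context after their values were seen. Fragment values come from 2535 genes with a single GENCODE M21 transcript over 1 kb. Promoters are RefSeq's. The settings also tried were a pseudocount of 0.1 or 5, a minimum of 5 FPKM or none, centring, quantile normalization, other wild types, other variance priors and each column left out of the additive fit. Some genes of the lists are counted but not reported here by name.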

Additional observations from a re-analysis of the deposited data

How the results depend on the processing

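No paired analysis was possible because the table gives 1 value per group and the replicate numbers of the labels have no columns of their own; leaving out single replicates was likewise not run, and columns were left out of the additive fit instead. No member compared passed 2-fold in a knockout comparison with a pseudocount of 0.1 or 5, centring, quantile normalization or, in myoblasts, another wild type or a filter of 5 FPKM. In muscle that filter left 0 members to compare. With no filter and a pseudocount of 0.1, chosen after seeing the data, 1 member (Tm7sf2) did in LBR_KO muscle and 1 (Tm7sf2) in LMNA_KO muscle. The members' medians in these comparisons stayed between -0.19 and 0.16 where members were left to compare. The number of all genes past 2-fold, in the order LBR_KO muscle, LMNA_KO muscle, LBR_KO myoblasts, LMNA_KO myoblasts, LBR_KO against LMNA_KO in muscle and the same in myoblasts, was 189, 325, 298, 138, 180 and 383 as reported. It was 457, 725, 486, 223, 404 and 670 with a pseudocount of 0.1, 48, 98, 86, 32, 56 and 134 with a pseudocount of 5, 67, 187, 132, 60, 109 and 238 with a filter of 5 FPKM, and 1417, 1735, 1017, 572, 1296 and 1259 with no filter and a pseudocount of 0.1. It was 152 in LBR_KO myoblasts against the mean of both wild types and 518 in LMNA_KO myoblasts against the other litter's wild type. In the additive fit all 8 members stayed called lower in muscle with either pseudocount, no filter, quantile normalization, other variance priors and each column left out, except that the filter of 5 FPKM left 7 to test and that Tm7sf2 was lost without wt muscle. Sizes moved with the pseudocount, Cyp51 between -4.46 (0.1) and -2.85 (5). Genes called for LBR_KO ranged from 0 to 38 and for LMNA_KO from 1 to 42 with a column left out, both highest without wt muscle, against 0 and 1 with all columns, and 0 were called for LMNA_KO with no filter. The cause was not tested. Low muscle depth limits Tm7sf2 most.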
